A study of Mus musculus with 11 samples.

Results

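The potassium channel gene family was described across cultured progenitor lines of the stomach and the muscle wall they came from. Its members were taken as all genes with a single symbol in the platform annotation that begins with Kcn and goes on with letters and a number. This gave 80 of 18193 named genes, measured by 158 probe sets, and 45 members had more than 1. Where a member had several, the one with the highest average across all 11 arrays stood for it. The members comprised 31 voltage-gated pore subunits, 8 calcium- or sodium-activated pore subunits, 15 inward rectifier subunits, 12 two-pore-domain subunits and 14 auxiliary subunits.

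The study used Affymetrix mouse arrays to profile the gastric tunica muscularis and 2 clonal lines derived from it, progenitors of ICC (interstitial cells of Cajal), which pace the gut and carry Kit. The C57BL/6J line (3 arrays) came from wild-type mice and grew in a proliferation medium for neural stem cells that held 5% chick embryo extract, at 37 °C. The tsA58 line (3 arrays) came from H-2Kb-tsA58 mice, whose transgene is a heat-sensitive SV40 large T antigen behind an interferon-inducible promoter, and it was kept at 39.5 °C in that base medium, with no interferon-gamma added. The other groups were C57BL/6J tissue (2 arrays) and tsA58 tissue (3 arrays), the muscle wall of each strain. Each line is 1 clone, so strain, transgene, temperature, extract and clone differ together between the lines and cannot be told apart. The labels give no age of the animals and do not say whether tissue was pooled. The titles call the arrays of a group biological replicates, but nothing states that they came from separate cultures or animals, so p-values measure the spread between these arrays, which may be technical.

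Potassium channels let potassium leave or enter the cell along its gradient and so set the resting membrane potential and the end of each depolarisation. Voltage-gated channels open on depolarisation, calcium-activated channels answer intracellular calcium, inward rectifiers and two-pore-domain channels hold the resting potential, and auxiliary subunits bind a pore subunit and change its traffic or gating. In the stomach wall these currents shape slow waves and limit the contraction of smooth muscle, while in the gastric gland potassium recycling feeds the proton pump.

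Levels are log2 intensities, on which 1 unit is a doubling, and the median over all probe sets of an array lay between 4.66 and 4.84. A member was called near the array median when every group mean lay less than 1 unit above the mean median of that group's arrays. That held for 48 of the 80 members, with group means from 2.39 to 5.79, though single arrays could lie higher (Kcnj16 read 7.74 on tsA58 tissue replicate 2). Background was not measured, so how much of the signal at this level is background is not known. A fold change between a group above that level and a group at it, as for Kcnd3 and Kcnj8, can therefore understate the difference. Of these 48 members 7 were called in some comparison, and their folds carry the same limit: Kcna6, Kcnc2, Kcng4, Kcnmb2, Kcnmb4, Kcnn1 and Kcnn2. The range ends at Kcnmb2 (5.79 in C57BL/6J tissue), and Kcnt2 lay just above the limit with 5.85 in the same tissue. Inward rectifiers were near the median most often (12 of 15), followed by two-pore-domain subunits (8 of 12), voltage-gated subunits (19 of 31), calcium- or sodium-activated subunits (5 of 8) and auxiliary subunits (4 of 14). More members stood at least 1 unit above the median in the tissues than in the lines: 23 in C57BL/6J tissue and 27 in tsA58 tissue, against 10 in the C57BL/6J line and 9 in the tsA58 line. The same counts were not made over all genes, so these level counts describe the family and do not set it apart.

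Among members near the median in all groups were Kcnj2 (Kir2.1, the strong inward rectifier of excitable cells), which read 2.54 to 2.97 over the 11 arrays, and Kcnn3 (the SK3 channel), which read 4.35 to 5.05. Kcnh1 (the EAG1 channel) read 4.03 to 5.54 and was also near the median. Kcnd2 (Kv4.2) read 2.83 to 5.53, with group means of 3.01 ± 0.20 (SD, n = 3) in the C57BL/6J line, 4.50 ± 0.27 (n = 2) in C57BL/6J tissue, 3.02 ± 0.06 (n = 3) in the tsA58 line and 4.90 ± 0.55 (n = 3) in tsA58 tissue. It was not tested, because it passed the median on 1 array alone. In all, 53 members passed the filter for testing, which asked for a level above the array median on at least 2 arrays, and 27 did not. The highest value of those 27 on any array ran from 2.81 (Kcnh5) to 5.53 (Kcnd2), and none of them is called absent.

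The members at least 1 unit above the median in all 4 groups were 5: the voltage-gated Kcna7, Kcnh2 and Kcnh3, the inward rectifier Kcnj11 and the auxiliary Kcnab1. Kcna7, Kcnh3 and Kcnj11 were called in no comparison. Kcnj11 (Kir6.2, a pore subunit of the ATP-sensitive KATP channel) read 9.18, 9.08 and 9.14 in the C57BL/6J line, 8.98 and 9.16 in C57BL/6J tissue, 8.97, 9.08 and 9.26 in the tsA58 line, and 8.71, 9.07 and 9.12 in tsA58 tissue. The 4 groups overlapped throughout. Its second probe set averaged 3.80 and did not pass the filter, so the 2 probe sets of this gene stand on opposite sides of the median.

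**Figure D1:**
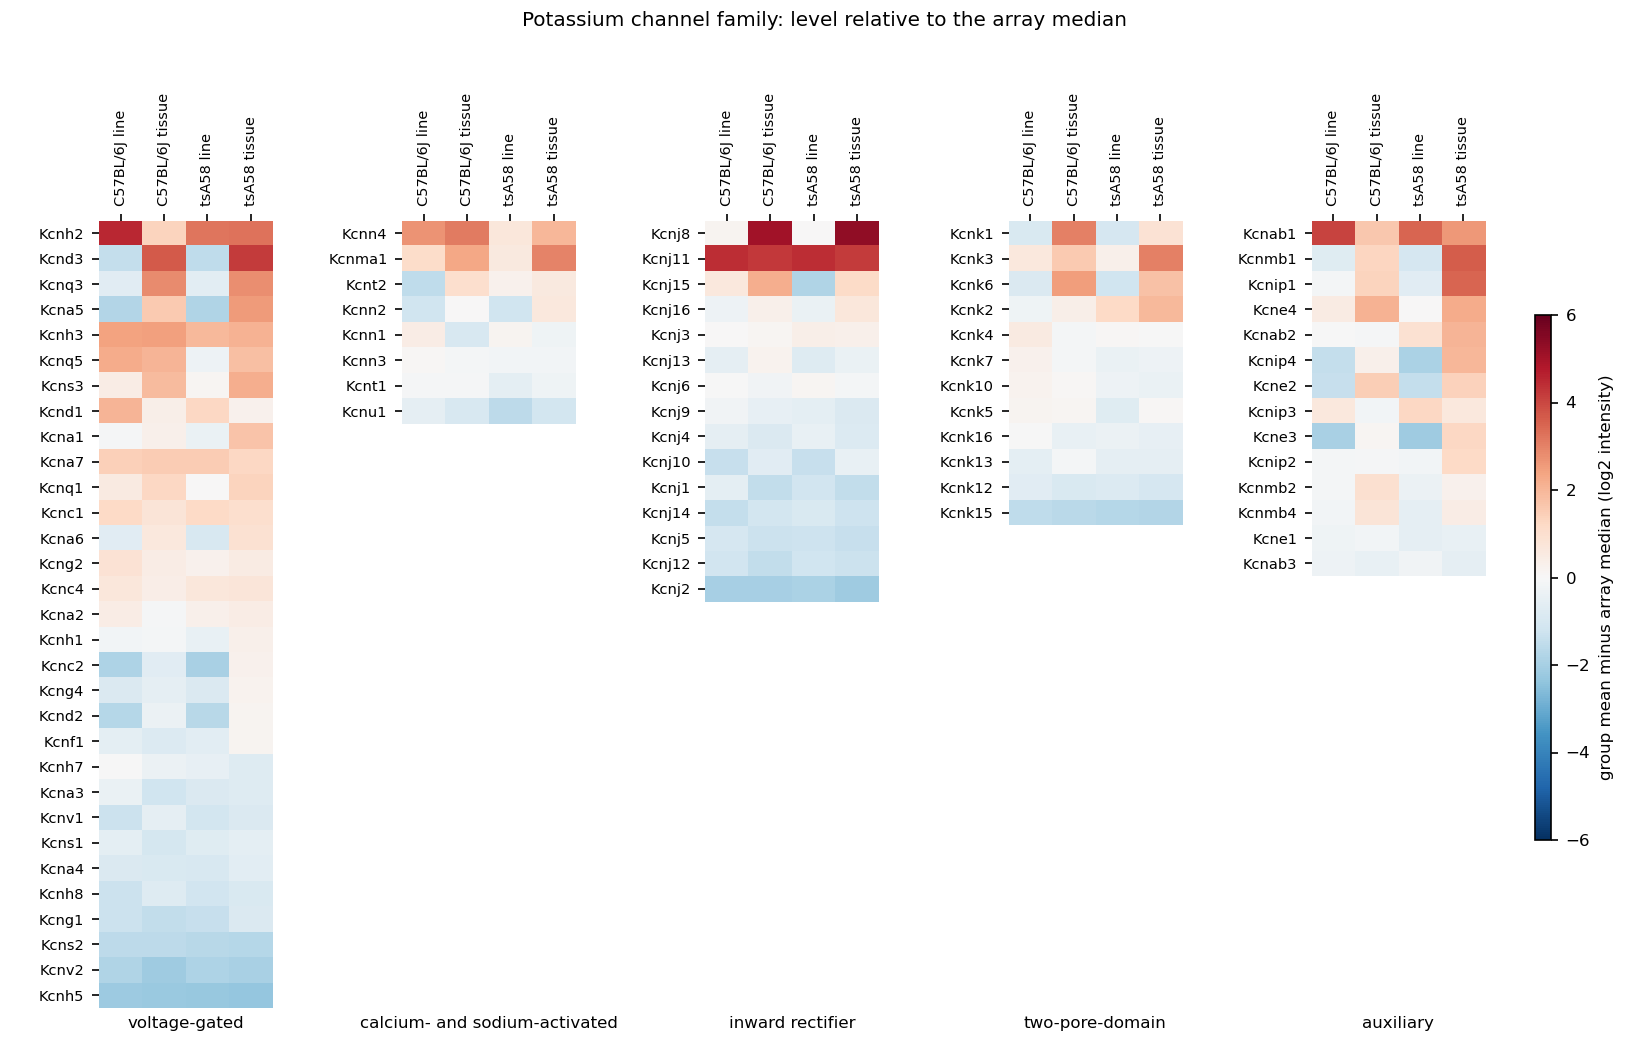
Group mean of each of the 80 members minus the mean array median of that group (colour, log2 intensity), with the 4 groups as columns, the members as rows and 1 panel for each functional class. Pale and blue cells lie near or below the array median, as 48 members do in all groups; Kcnd3 and Kcnj8 are red in both tissues and pale or blue in both lines, and Kcnj11 is red in all 4.

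Replicate arrays correlated at 0.956 to 0.991 within a group over all probe sets and at 0.777 to 0.981 over the 80 members. The lowest value was between arrays of tsA58 tissue, where replicate 2 stood apart: its mean over 6 gastric epithelium genes was 12.99, against 10.38 and 10.75 in the other two, and its mean over 3 exocrine pancreas genes was 9.92, against 5.04 and 5.84. C57BL/6J tissue replicate 1 carried the pancreas genes too (10.58, against 5.95 in replicate 2). Both tissues had the smooth muscle list at 11.60 to 13.15 and the ICC markers Kit and Ano1 at 8.36 to 9.15 on average. The lines had the smooth muscle list at 5.69 to 7.40 on average, but its genes differed, with Acta2 at 9.72 to 12.13 and Myh11 at 3.62 to 4.27. Of its 7 genes, 2 in the C57BL/6J line and 3 in the tsA58 line lay at or below the median. Kit stood at 3.16 to 3.87 in the lines, below the median, and Ano1 at 6.02 to 7.82, above it. Against tissue, all 8 tested neuron genes and both ICC markers were called lower in each line, as were 5 of 7 smooth muscle genes in the C57BL/6J line and 7 of 7 in the tsA58 line. Of the other tested markers, the counts called lower in the C57BL/6J and the tsA58 line were 5 and 6 of 6 for gastric epithelium, 2 and 2 of 3 for glia, 2 and 3 of 4 for PDGFRA-positive cells and fibroblasts, 3 and 3 of 4 for macrophages, 2 and 4 of 4 for endothelium, 1 and 1 of 3 for pancreas, 2 and 3 of 3 for skeletal muscle, and 0 and 1 of 3 for mesothelium; 1 macrophage and 1 mesothelium gene were called higher in the C57BL/6J line. The part of these cell types in the channel differences was not tested, and in whole tissue fewer cells of a type and less RNA per cell cannot be told apart.

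Each line was compared with the muscle wall of its strain to see how a cultured progenitor differs from its source. Calls required a change of at least 2-fold and an adjusted p below 0.05 over all 13285 genes tested. Of 53 tested members 24 were called in the C57BL/6J line (45.3%, where 34.1% of all genes were), 4 of them higher than tissue and 20 lower. Over all genes 16.6% were called lower and 17.5% higher. In the tsA58 line 26 of 53 were called (49.1%, where 31.7% of all genes were), and all 26 were lower, against 18.9% of all genes called lower and 12.8% called higher. The median log2 fold change of the tested members was -0.56 in the C57BL/6J and -1.15 in the tsA58 comparison, beside 0.12 and 0.00 over all genes. Centring the arrays on their hybridisation controls moved the median of all genes by 1.23 and 0.60, so every direction here is relative to the bulk of transcripts on the array. With that centring the members' median turned to 0.67 in the C57BL/6J comparison and was -0.55 in the tsA58 comparison, and the splits became 6 higher and 7 lower, and 0 higher and 15 lower. Over all genes the splits were then 5148 higher and 723 lower, and 1821 higher and 1151 lower.

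The same 18 members were called lower in both lines, which is 34% of those tested where 11% of all genes tested were lower in both. They are 90% of the members lower in the C57BL/6J line and 69.2% of those lower in the tsA58 line. They comprise 5 voltage-gated subunits (Kcna5, Kcna6, Kcnd3, Kcnq3 and Kcns3), 2 calcium-activated subunits (Kcnma1 and Kcnn2), the inward rectifier Kcnj8, 3 two-pore-domain subunits (Kcnk1, Kcnk3 and Kcnk6) and 7 auxiliary subunits (Kcne2, Kcne3, Kcne4, Kcnip1, Kcnip4, Kcnmb1 and Kcnmb4). No member was called in opposite directions. The filter bears on these counts: 20 of the 53 tested members, and 13 of these 18, were above the array median on tissue arrays only, the groups where they are high, so the counts are a description. Across the 53 members the fold changes of both comparisons, which share no array, correlated at r = 0.822 (rho = 0.852), and 44 had the same sign. The filter bears on these values too, and they were not computed over all genes. They are therefore no trait particular to the family. Members are not independent of each other, and all values come from 1 fit. With hybridisation control centring, 6 of the 18 were still called lower in both: Kcna5, Kcnd3, Kcne2, Kcnj8, Kcnk6 and Kcnq3. Leaving out 1 array at a time left 14 to 18 of them called in both; without C57BL/6J tissue replicate 1, Kcne2, Kcnk3, Kcnmb4 and Kcns3 were lost.

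**Figure D2:**
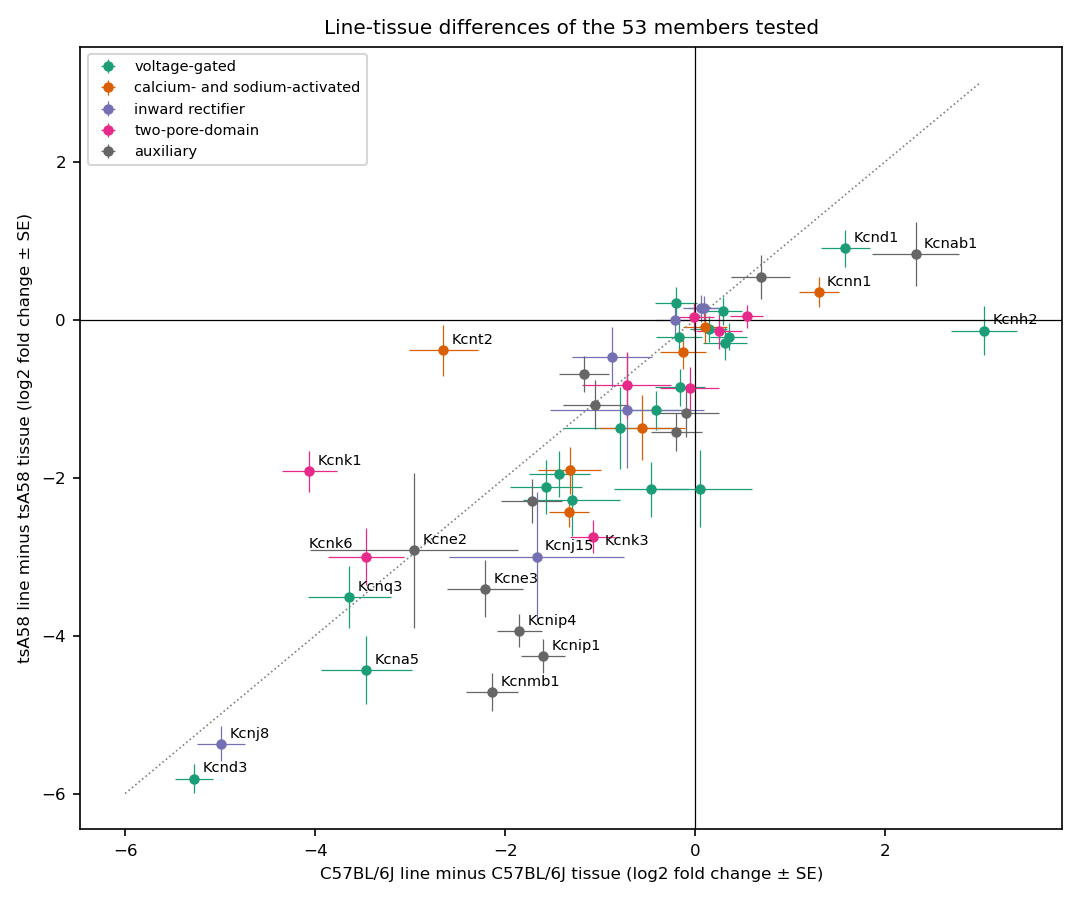
Log2 fold change of each of the 53 tested members in the C57BL/6J line against its tissue (x axis) and in the tsA58 line against its tissue (y axis), with bars for the standard error and colours for the functional class; the dotted line marks equal values. Kcnd3 and Kcnj8 lie lowest on both axes, Kcnmb1, Kcnip1 and Kcnip4 lie below the dotted line and Kcnk1 and Kcnt2 above it, and Kcnh2 stands to the right at 3.04 and -0.14.

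**Figure D3:**
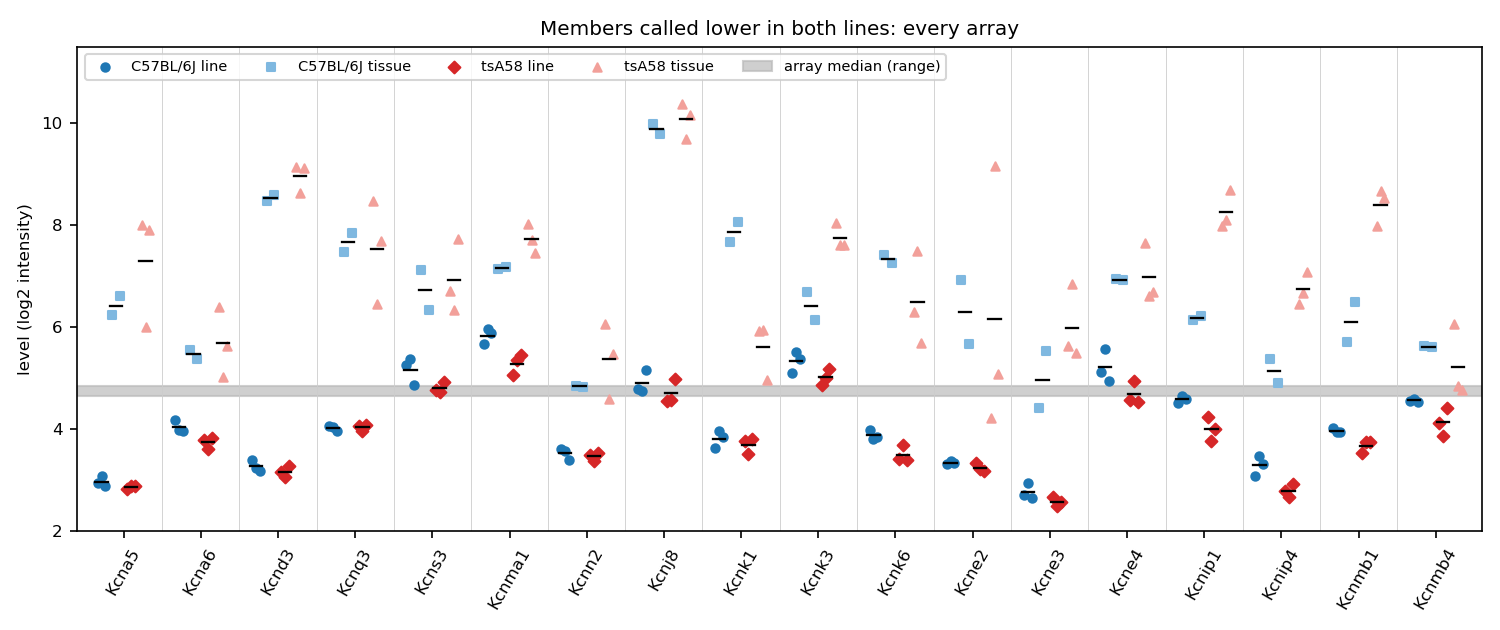
Level of each of the 18 members called lower in both lines on every array (points, log2 intensity), with group means as bars and the range of array medians as a grey band. In all 18 members every line array lies below every tissue array. Kcne2 in tsA58 tissue spans 4.22 to 9.17.

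The upstream sequence is shown for 4 members that illustrate the main patterns: Kcnd3 and Kcnj8, with the largest differences in both lines, Kcnmb1, whose differences were unequal in the 2 strains, and Kcnh2, which was higher in a line. Each is the 250 bases before the annotated start in RefSeq (GRCm38.p6), written 5′ to 3′ on the gene's strand, with each CG dinucleotide in capitals.
Kcnd3: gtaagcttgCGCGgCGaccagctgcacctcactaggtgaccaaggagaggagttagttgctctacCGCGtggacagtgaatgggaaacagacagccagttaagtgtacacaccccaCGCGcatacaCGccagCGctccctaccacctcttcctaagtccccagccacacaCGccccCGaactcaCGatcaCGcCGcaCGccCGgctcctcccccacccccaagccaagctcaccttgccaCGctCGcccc
Kcnj8: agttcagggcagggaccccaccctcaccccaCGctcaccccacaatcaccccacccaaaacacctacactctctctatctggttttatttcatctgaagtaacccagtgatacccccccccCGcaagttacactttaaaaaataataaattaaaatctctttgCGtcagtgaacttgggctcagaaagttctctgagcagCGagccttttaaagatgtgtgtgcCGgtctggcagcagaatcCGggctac
Kcnmb1: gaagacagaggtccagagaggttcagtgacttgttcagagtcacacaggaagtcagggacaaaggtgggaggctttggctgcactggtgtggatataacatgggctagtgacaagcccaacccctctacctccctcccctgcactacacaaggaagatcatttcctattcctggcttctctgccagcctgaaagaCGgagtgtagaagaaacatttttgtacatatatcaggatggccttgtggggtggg
Kcnh2: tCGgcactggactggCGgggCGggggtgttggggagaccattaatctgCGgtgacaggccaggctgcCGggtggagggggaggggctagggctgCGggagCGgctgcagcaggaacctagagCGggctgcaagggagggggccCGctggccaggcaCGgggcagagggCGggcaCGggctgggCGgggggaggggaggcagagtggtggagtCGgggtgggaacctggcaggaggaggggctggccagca
Kcnd3 holds 18 CG dinucleotides in this stretch (chr3:105451640-105451889, plus strand), Kcnj8 6 (chr6:142571615-142571864, minus strand), Kcnmb1 1 (chr11:33962763-33963012, plus strand) and Kcnh2 14 (chr5:24329592-24329841, minus strand). The table held a promoter of 300 bases, 250 before and 50 after the start, for 61 of the 80 members. Over these the median number of CG dinucleotides per gene was 9 for the 14 members lower in both lines, 11 for the 13 called otherwise, 12.5 for the 15 tested and never called and 20 for the 19 not tested, beside 7 for all genes. The CArG box, the motif that serum response factor binds in smooth muscle promoters, was searched in its strict form of 6 A or T positions, which reads the same on both strands. It was found in 0 of 86 member promoters and in 1.63% of all 32851 promoters, and no match says only that the motif is not in this window.

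Among the 19 tested voltage-gated subunits, 2 rose and 5 fell in the C57BL/6J line, 9 fell in the tsA58 line, and Kcnd3 fell furthest in both. These are 36.8% and 47.4% of the class called, beside 34.1% and 31.7% of all genes, so the C57BL/6J share is near that of all genes. Kcnd3 encodes Kv4.3, a pore of the fast transient current that delays firing. It read 3.39, 3.23 and 3.18 in the C57BL/6J line, 8.47 and 8.60 in C57BL/6J tissue, 3.16, 3.05 and 3.27 in the tsA58 line, and 9.14, 8.63 and 9.13 in tsA58 tissue. All line arrays lay below the array median and all tissue arrays far above it. The log2 fold change was -5.27 ± 0.20 (SE, adjusted p = 2.84e-08) in the C57BL/6J line and -5.81 ± 0.18 (adjusted p = 3.11e-09) in the tsA58 line. A second probe set of Kcnd3 above the filter gave -0.20 and -2.58, and the other two, below it, gave -0.09 and -0.71 in the C57BL/6J line and 0.11 and -0.01 in the tsA58 line, so the size depends on the probe set.

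Kcna5, which encodes the delayed rectifier Kv1.5 of smooth muscle, read 2.94, 3.08 and 2.88 in the C57BL/6J line, 6.24 and 6.61 in C57BL/6J tissue, 2.82, 2.89 and 2.89 in the tsA58 line, and 8.01, 6.00 and 7.91 in tsA58 tissue. Lines and tissues did not overlap, and the fold changes were -3.46 ± 0.48 and -4.44 ± 0.43 (adjusted p = 0.000218 and 1.67e-05). Kcnq3, a subunit of the M current that steadies neurons, read 4.07, 4.04 and 3.96, then 7.48 and 7.85, then 4.06, 3.97 and 4.08, then 8.48, 6.46 and 7.69 in the same order of groups. Both lines lay below the array median, with changes of -3.64 ± 0.44 and -3.51 ± 0.39 (adjusted p = 8.54e-05 and 4.62e-05). Kcns3, a silent subunit that modifies Kv2 channels, changed by -1.57 ± 0.38 and -2.12 ± 0.34, and the neuronal Kv1 gene Kcna6 by -1.43 ± 0.32 and -1.95 ± 0.29. Without C57BL/6J tissue replicate 1 Kcns3 was no longer called in the C57BL/6J line (-1.17).

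Another 4 voltage-gated members were called lower in the tsA58 line alone, without a called difference between the lines' changes for 3 of them. Kcnc2, a Kv3 subunit of fast-firing neurons, read 2.91, 2.71 and 2.95 in the C57BL/6J line, 3.76 and 4.56 in C57BL/6J tissue, 2.72, 2.67 and 2.78 in the tsA58 line, and 6.25, 4.02 and 4.76 in tsA58 tissue. Only 1 tsA58 tissue array lay above 5, and the change was -2.29 ± 0.45 in the tsA58 line and -1.30 ± 0.51 (not called) in the C57BL/6J line. Kcna1, the neuronal Kv1.1, changed by -2.15 ± 0.35 in the tsA58 line and by -0.47 ± 0.39 (not called) in the C57BL/6J line. Other probe sets of Kcna1 gave -1.93 and -2.73 in the C57BL/6J line, so its place among members lower in 1 line rests on the probe set chosen. The silent subunit Kcng4 changed by -1.15 ± 0.25 and the M-current gene Kcnq5 by -2.14 ± 0.49 in the tsA58 line. Kcnc2 and Kcng4 passed the filter through 2 arrays of tsA58 tissue alone, the group they were then compared with, and each is not tested when 1 of those arrays is left out. Both lay near the array median in all groups. The difference between the lines' changes was called for Kcna1 and missed the threshold for Kcnc2, Kcng4 and Kcnq5 (adjusted p = 0.325, 0.185 and 0.0559). For Kcnq5 that difference was called without tsA58 tissue replicate 2 (-2.56) and without tsA58 line replicate 3 (-2.80), and Kcnc2 was called lower in the C57BL/6J line without tsA58 tissue replicate 2 (-1.30).

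Of the BK channel genes, the pore of the large-conductance BK channel and its beta subunits Kcnmb1 and Kcnmb4 were called lower in both lines. Kcnma1, its pore, read 5.67, 5.96 and 5.88 in the C57BL/6J line, 7.14 and 7.18 in C57BL/6J tissue, 5.06, 5.35 and 5.45 in the tsA58 line, and 8.02, 7.72 and 7.45 in tsA58 tissue. No line array reached a tissue array, and the changes were -1.33 ± 0.21 and -2.44 ± 0.19 (adjusted p = 0.000529 and 3.11e-06). The 2 further probe sets of Kcnma1 that passed the filter gave -5.52 and -3.18 in the C57BL/6J line and -5.73 and -0.93 in the tsA58 line.

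Kcnmb1, the smooth muscle beta subunit that raises the calcium sensitivity of BK, read 4.02, 3.94 and 3.95 in the C57BL/6J line, 5.71 and 6.50 in C57BL/6J tissue, 3.54, 3.74 and 3.74 in the tsA58 line, and 7.98, 8.67 and 8.54 in tsA58 tissue. The 3 tsA58 tissue arrays lay above all others. The changes were -2.14 ± 0.27 (adjusted p = 0.000107) in the C57BL/6J and -4.72 ± 0.24 (adjusted p = 1.06e-07) in the tsA58 line. The neuronal beta subunit Kcnmb4 changed by -1.05 ± 0.34 and -1.08 ± 0.31, values close to the 2-fold limit, and all 4 of its group means lay near the array median. Kcnmb2, an inactivating beta subunit, was called in the C57BL/6J line only (-1.17 ± 0.26, and -0.69 ± 0.23 in the tsA58 line). With hybridisation control centring the C57BL/6J values of Kcnmb4 and Kcnmb2 turned to 0.18 and 0.07, and without C57BL/6J tissue replicate 1 neither was called (-1.04 and -0.91). Leaving out any other C57BL/6J array also ended the C57BL/6J call of Kcnmb4, with values from -1.07 to -1.04, and its tsA58 value was -0.66 without tsA58 tissue replicate 1 and -0.95 without tsA58 line replicate 2. Lrrc26, a gamma subunit of BK outside the family, changed by -2.20 ± 0.53 and -1.30 ± 0.47.

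The small-conductance SK channels differed among themselves. Kcnn2 (SK2) read 3.60, 3.57 and 3.40 in the C57BL/6J line, 4.85 and 4.83 in C57BL/6J tissue, 3.49, 3.38 and 3.54 in the tsA58 line, and 6.07, 4.60 and 5.47 in tsA58 tissue. All tissue arrays lay above all line arrays, while every group mean was near the array median, with changes of -1.32 ± 0.33 and -1.91 ± 0.30. Kcnn1 (SK1) read 5.28, 5.21 and 5.03, then 3.97 and 3.78, then 4.74, 4.90 and 4.95, then 4.60, 4.17 and 4.76 in the same order. Near the array median in all groups, it was one of the members higher in the C57BL/6J line (1.30 ± 0.21, adjusted p = 0.000518), and its tsA58 groups overlapped. Kcnn4, the intermediate-conductance channel of dividing and secreting cells, was called lower in the tsA58 line only (-1.37 ± 0.41, adjusted p = 0.0174, and -0.56 ± 0.45 in the C57BL/6J line). That call was lost without tsA58 tissue replicate 2 (-1.04) and without tsA58 line replicate 2 (-1.22).

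Of the inward rectifiers, Kcnj8 (Kir6.1, a pore of the KATP channel of smooth muscle) differed as strongly as Kcnd3. It read 4.79, 4.74 and 5.16 in the C57BL/6J line, 9.98 and 9.79 in C57BL/6J tissue, 4.55, 4.58 and 4.99 in the tsA58 line, and 10.38, 9.69 and 10.17 in tsA58 tissue. All line arrays lay within 1 unit of the array median and all tissue arrays at least 4 units higher than any line array. The changes were -4.99 ± 0.25 (adjusted p = 2.17e-07) and -5.37 ± 0.22 (adjusted p = 2.28e-08).

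Abcc9, which encodes the sulfonylurea receptor SUR2 that pairs with Kir6 pores and is the genomic neighbour of Kcnj8, read 3.06 to 3.68 in the lines and 9.25 to 9.88 in the tissues. Its changes were -6.42 ± 0.25 and -5.90 ± 0.23 (adjusted p = 3.62e-08 and 1.33e-08). By contrast Kcnj11, with levels that overlapped in all groups, has the neighbour Abcc8 (the receptor SUR1), which read 3.91 to 5.25 over all arrays and did not pass the filter. Of 15 listed partner genes outside the family, 11 had a probe set and 6 were tested: against C57BL/6J tissue 0 rose and 2 fell, and against tsA58 tissue 1 rose and 3 fell. The higher one was Rest, a repressor of neuronal channel genes (1.34 ± 0.29, and 0.95 ± 0.32 without a call in the C57BL/6J line). The third lower one was the Kv4 partner Dpp6 (-1.93 ± 0.40), while the Kv2 partner Amigo1 and the cation channel gene Hcn3 were called in neither line. Over all genes 34.1% were called in the C57BL/6J line against its tissue and 31.7% in the tsA58 line. With 6 partners tested, their counts are not set apart from these shares. The partner list was chosen with results of these arrays known and is no independent evidence of direction.

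Among two-pore-domain subunits, which carry background current, 3 of 8 tested were called lower in each line and 0 higher. That is 37.5%, beside 16.6% and 18.9% of all genes called lower. Called in either direction were 34.1% and 31.7% of all genes. Kcnk1 (TWIK-1) read 3.63, 3.96 and 3.85 in the C57BL/6J line, 7.68 and 8.06 in C57BL/6J tissue, 3.76, 3.52 and 3.81 in the tsA58 line, and 5.93, 5.94 and 4.97 in tsA58 tissue. The lines overlapped each other, while the C57BL/6J tissue arrays stood above those of tsA58 tissue, and the changes were -4.06 ± 0.29 and -1.92 ± 0.26 (adjusted p = 2.98e-06 and 0.000185). Kcnk6 (TWIK-2) read 3.98, 3.81 and 3.84, then 7.41 and 7.26, then 3.42, 3.69 and 3.39, then 6.30, 7.50 and 5.69, and no line array reached a tissue array. Its changes were -3.46 ± 0.40 and -3.00 ± 0.36 (adjusted p = 6.84e-05 and 7.82e-05).

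Kcnk3 (TASK-1, an acid-sensitive background channel) read 5.10, 5.52 and 5.38 in the C57BL/6J line, 6.70 and 6.14 in C57BL/6J tissue, 4.86, 5.00 and 5.18 in the tsA58 line, and 8.04, 7.62 and 7.62 in tsA58 tissue. The groups of each strain did not overlap. Its change in the tsA58 line was -2.75 ± 0.21 (adjusted p = 2.86e-06). In the C57BL/6J line it was -1.08 ± 0.24, which turned to 0.15 with hybridisation control centring, was opposed by a second probe set (0.43), and was -0.81 without C57BL/6J tissue replicate 1 and -0.97 without C57BL/6J line replicate 1, neither of them called.

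Auxiliary subunits were the class with the highest share of calls: 9 of 12 tested in the C57BL/6J line (1 higher, 8 lower) and 9 of 12 in the tsA58 line, all lower. That is 75.0% called in each line, beside 34.1% and 31.7% of all genes. Called lower were 66.7% and 75.0% of the class, beside 16.6% and 18.9% of all genes. The KChIP genes Kcnip1 and Kcnip4 encode calcium-binding partners that bring Kv4 pores such as Kcnd3's to the membrane. Kcnip1 read 4.51, 4.64 and 4.60 in the C57BL/6J line, 6.14 and 6.22 in C57BL/6J tissue, 4.23, 3.76 and 4.01 in the tsA58 line, and 7.98, 8.10 and 8.69 in tsA58 tissue. Kcnip4 read 3.08, 3.47 and 3.32, then 5.37 and 4.90, then 2.79, 2.66 and 2.93, then 6.46, 6.67 and 7.09. In both genes the tsA58 tissue arrays were highest and the line arrays lowest, without overlap.

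The changes of Kcnip1 were -1.60 ± 0.23 and -4.26 ± 0.21 (adjusted p = 0.000294 and 8.59e-08), and those of Kcnip4 -1.85 ± 0.24 and -3.94 ± 0.21 (adjusted p = 0.000125 and 1.75e-07). Kcnip1 and Kcnmb1 are neighbours with overlapping gene spans in RefSeq, and whether the probe sets of one read transcripts of the other was not tested. Further probe sets that passed the filter gave -1.84 and -4.73 for Kcnip1 and -0.60 and -2.93 for Kcnmb1. With all probe sets averaged, the C57BL/6J change of Kcnip1 was -0.82 and not called. Kcnip2, another KChIP, was called lower in the tsA58 line only (-1.42 ± 0.24, and -0.20 ± 0.27 in the C57BL/6J line). The Kv beta subunit Kcnab2 was also called there only (-1.18 ± 0.31), with a second probe set at 0.22, and without tsA58 line replicate 1 or tsA58 tissue replicate 1 its change fell under the 2-fold limit (-0.99 and -0.81).

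The KCNE genes encode single-pass subunits that change the gating of KCNQ and other pores. Kcne3, found in epithelia and muscle, read 2.70, 2.94 and 2.65 in the C57BL/6J line, 4.41 and 5.53 in C57BL/6J tissue, 2.66, 2.49 and 2.56 in the tsA58 line, and 5.63, 6.84 and 5.50 in tsA58 tissue. All line arrays lay below all tissue arrays, with changes of -2.21 ± 0.40 and -3.41 ± 0.36 (adjusted p = 0.00122 and 3.08e-05). Kcne4, a subunit of vascular and gut smooth muscle, read 5.12, 5.57 and 4.94, then 6.94 and 6.93, then 4.58, 4.95 and 4.53, then 7.66, 6.61 and 6.70. Its lines stood near the array median and did not reach the tissues (-1.72 ± 0.32 and -2.30 ± 0.28, adjusted p = 0.00128 and 9.25e-05).

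Some members with known roles in gastric acid secretion or in other epithelia varied most between the arrays of tsA58 tissue. Kcne2 (SD 2.65), Kcnj15 (SD 2.13), Kcnj16 (SD 2.00) and Kcnq1 (SD 1.39) had the largest spread of all members there. Other epithelial members varied less: Kcnk6 (SD 0.92), Kcne3 (SD 0.74) and Kcnk1 (SD 0.56, with 5.93, 5.94 and 4.97). Kcne2, which joins Kcnq1 in the apical potassium channel of the acid-secreting parietal cell, read 3.32, 3.37 and 3.33 in the C57BL/6J line, 6.93 and 5.67 in C57BL/6J tissue, 3.33, 3.21 and 3.18 in the tsA58 line, and 4.22, 9.17 and 5.08 in tsA58 tissue. Kcnj15, an inward rectifier of epithelia, read 5.07, 5.15 and 5.80, then 7.65 and 6.36, then 2.75, 2.67 and 3.25, then 4.66, 8.35 and 4.68. Kcnq1 itself read 5.21, 5.42 and 5.18, then 6.28 and 5.83, then 4.73, 4.52 and 4.89, then 5.09, 7.67 and 5.49. In all 3 genes tsA58 tissue replicate 2, the array with the highest gastric epithelium, exocrine pancreas and macrophage markers of that tissue, stood above the other arrays of its group, and C57BL/6J tissue replicate 1 above replicate 2. That array also held more pancreas signal than its replicate (10.58 against 5.95), with epithelium at 11.27 against 10.85. The inward rectifier Kcnj16 had the same outlying array, at 7.74 against 4.14 and 4.44.

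Kcne2 was called lower in both lines (-2.96 ± 1.09 and -2.92 ± 0.98, adjusted p = 0.0465 and 0.0306) and Kcnj15 in the tsA58 line (-3.00 ± 0.82, adjusted p = 0.0120). Kcnq1 was not called (-0.79 ± 0.59 and -1.37 ± 0.52). Its tsA58 change was called without tsA58 tissue replicate 1 (-1.86), without replicate 3 (-1.66) and with a stricter filter for testing (-1.37). Without tsA58 tissue replicate 2 the tsA58 changes of Kcne2 and Kcnj15 were -1.41 and -1.78, both still called, and Kcnj15 was then called in the C57BL/6J line too (-1.67). The value of Kcnq1 was then -0.57, and that of Kcnj16 went from -1.15 to 0.00273. Leaving out any C57BL/6J array or any tsA58 line array ended the C57BL/6J call of Kcne2, with values from -3.59 to -2.33, and leaving out any tsA58 line array ended its tsA58 call, with values from -2.96 to -2.89. The part of gastric epithelium and pancreas in these differences was not tested. The 6 epithelium genes averaged 10.38 to 12.99 in tissue and 5.33 to 5.91 in the lines.

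**Figure D4:**
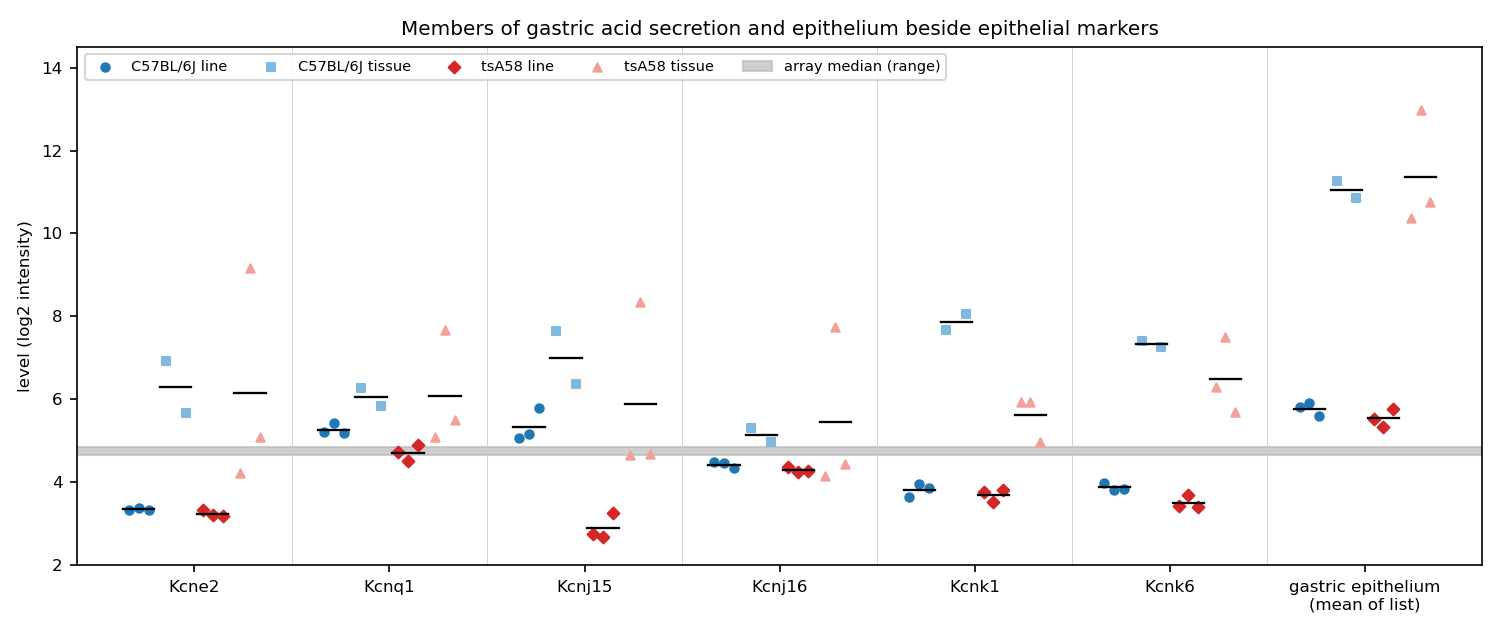
Level on every array (points, log2 intensity) of 6 members with roles in gastric acid secretion or epithelia, beside the mean of 6 gastric epithelium genes, with group means as bars and the range of array medians as a grey band. tsA58 tissue replicate 2 is the highest array of Kcne2, Kcnq1, Kcnj15, Kcnj16 and Kcnk6 and of the epithelium list. Kcnk1 departs from this, with 5.93, 5.94 and 4.97 in tsA58 tissue and 7.68 and 8.06 in C57BL/6J tissue.

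The 4 members higher in the C57BL/6J line than in its tissue were Kcnh2, Kcnab1, Kcnd1 and Kcnn1. Kcnh2 (ERG1, a channel that speeds repolarisation and is present in ICC and in many dividing cells) read 9.22, 8.81 and 9.67 in the C57BL/6J line, 6.03 and 6.36 in C57BL/6J tissue, 7.56, 7.62 and 8.44 in the tsA58 line, and 8.16, 7.53 and 8.34 in tsA58 tissue. The C57BL/6J line was above all other arrays and C57BL/6J tissue below them, while the tsA58 groups overlapped. Its change was 3.04 ± 0.35 (8.22-fold, adjusted p = 6.33e-05) in the C57BL/6J line and -0.14 in the tsA58 line.

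Kcnab1, a Kv beta subunit, read 8.75, 8.57 and 9.02 in the C57BL/6J line, 6.38 and 6.54 in C57BL/6J tissue, 9.30, 7.56 and 7.72 in the tsA58 line, and 7.29, 6.98 and 7.82 in tsA58 tissue. The C57BL/6J groups did not overlap and the tsA58 groups did, with changes of 2.32 ± 0.46 (adjusted p = 0.00185) and 0.83 ± 0.41 (not called). Kcnd1 (Kv4.1), a relative of Kcnd3, changed the other way from it: 1.58 ± 0.26 in the C57BL/6J line (adjusted p = 0.000559) and 0.90 ± 0.23 in the tsA58 line, under the 2-fold limit. The difference between the lines' changes missed the threshold for Kcnab1 and Kcnd1 (adjusted p = 0.105 and 0.177), and for Kcnn1 it missed the 2-fold limit (-0.95 ± 0.28).

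**Figure D5:**
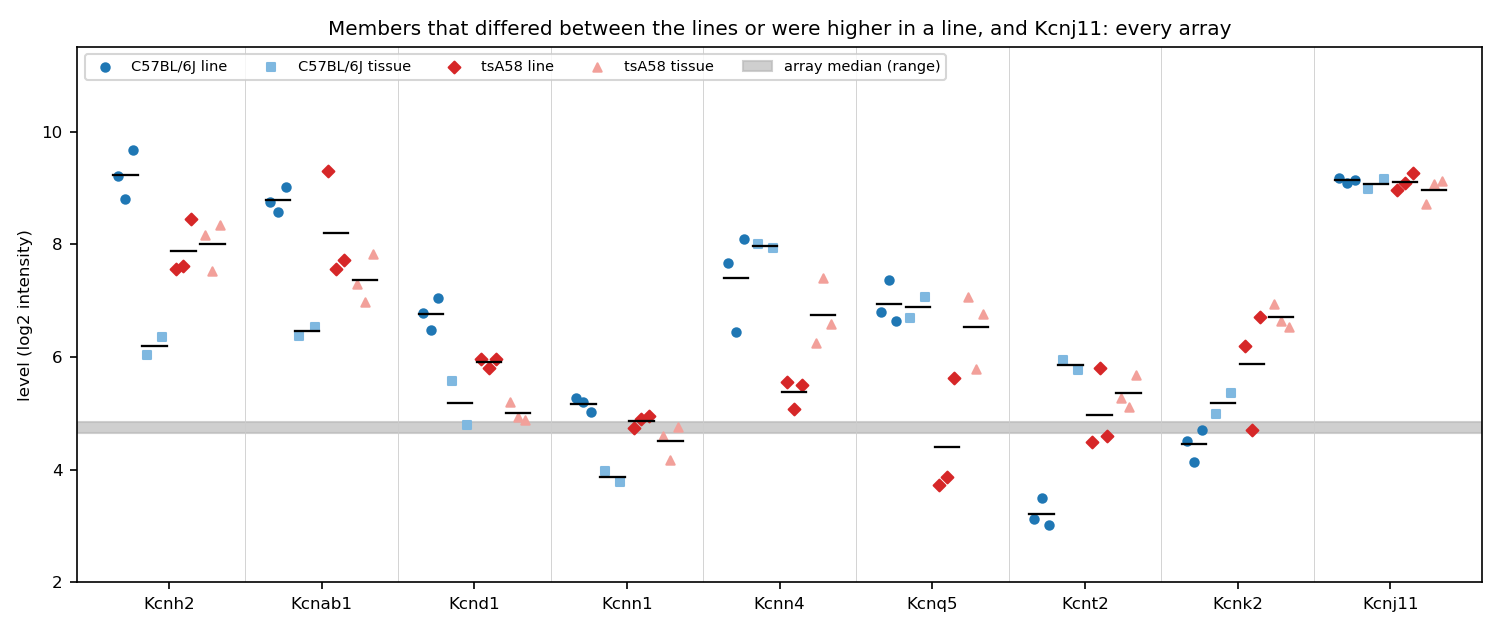
Level on every array (points, log2 intensity) of 8 members higher in the C57BL/6J line or different between the lines, and of Kcnj11, with group means as bars and the range of array medians as a grey band. Kcnh2 is highest in the C57BL/6J line, Kcnq5 and Kcnn4 are lowest in the tsA58 line, and Kcnj11 overlaps in all groups.

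The lines were compared with each other to see where the clones differ. Of 53 tested members 5 were called (9.43%, where 14.2% of all genes were), 2 higher and 3 lower in the tsA58 line, beside 8.38% of all genes higher and 5.77% lower. No auxiliary subunit was among them. The inward rectifier Kcnj15, at 5.07 to 5.80 in the C57BL/6J line and 2.67 to 3.25 in the tsA58 line, did not overlap between the lines but missed the threshold (-2.45 ± 0.82, adjusted p = 0.055). It was called without any 1 of the tsA58 tissue arrays, or when the lines alone were fitted, with the same value of -2.45. Kcnq5 read 6.80, 7.37 and 6.63 in the C57BL/6J line and 3.72, 3.87 and 5.63 in the tsA58 line, with 6.70 and 7.07 in C57BL/6J tissue and 7.06, 5.79 and 6.77 in tsA58 tissue. Both tissues and the C57BL/6J line lay above the tsA58 line, a difference of -2.53 ± 0.49 (adjusted p = 0.00479). Its highest tsA58 line array was replicate 3, which also stood apart in the mean of the mesothelium genes (10.29, against 7.95 and 7.44, and 10.64 or more in the C57BL/6J line). Between the lines 2 of 3 mesothelium, 2 of 4 macrophage, 2 of 8 neuron, 1 of 7 smooth muscle and 1 of 4 fibroblast genes were called lower in the tsA58 line and 1 fibroblast gene higher, and their part in the channel differences was not tested.

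Kcnn4 read 7.67, 6.45 and 8.10 in the C57BL/6J line, 8.01 and 7.93 in C57BL/6J tissue, 5.55, 5.08 and 5.50 in the tsA58 line, and 6.25, 7.40 and 6.58 in tsA58 tissue. The tsA58 line was lowest without overlap (-2.03 ± 0.41, adjusted p = 0.00565), and Kcnh2 was lower too, at -1.36 ± 0.31. Centring on hybridisation controls moved the median of all genes by 1.49, turned Kcnh2 to 0.13 and made 19 members higher and 0 lower. Of all 13285 genes tested, 7582 were then higher and 96 lower. Without tsA58 line replicate 1 Kcnh2 was not called (-1.20).

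Kcnt2, a sodium-activated channel, read 3.12, 3.49 and 3.02 in the C57BL/6J line and 4.50, 5.80 and 4.59 in the tsA58 line, with 5.94 and 5.77 in C57BL/6J tissue and 5.28, 5.11 and 5.68 in tsA58 tissue. The C57BL/6J line stood below the other 3 groups. Kcnt2 was 1.75 ± 0.32 higher in the tsA58 line (adjusted p = 0.00376) and, against tissue, -2.65 ± 0.36 in the C57BL/6J line (adjusted p = 0.000187). Kcnk2 (TREK-1, a stretch-sensitive background channel) read 4.51, 4.14 and 4.71 in the C57BL/6J line and 6.20, 4.70 and 6.71 in the tsA58 line, with 4.99 and 5.36 in C57BL/6J tissue and 6.94, 6.64 and 6.53 in tsA58 tissue. One tsA58 line array lay within the range of the C57BL/6J line, and the difference was 1.41 ± 0.42 (adjusted p = 0.0349). It fell to 0.14 with the 3′ to 5′ actin ratio, a measure of RNA quality, as a covariate. That ratio is in log2 units, the level of the 3′ probe set minus that of the 5′ probe set. It was 0.995 to 1.04 in the C57BL/6J line and 0.053 to 0.853 in the tsA58 line. The lower these values, the more even the signal of the 2 ends, and replicate 3 of the tsA58 line was lowest. Leaving out any C57BL/6J array, or tsA58 line replicate 1 or 3, also ended the call, with values from 0.99 to 1.54.

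Between the source tissues 10 of 53 tested members were called (18.9%, where 12.8% of all genes were), 9 higher and 1 lower in tsA58 tissue; over all genes 9.56% were called higher. The 5 auxiliary subunits called were all higher: Kcnmb1 (2.29 ± 0.27), Kcnip1 (2.08 ± 0.23), Kcnab2 (2.01 ± 0.35, with a second probe set at 0.23), Kcnip4 (1.60 ± 0.24) and Kcnip2 (1.18 ± 0.27). Kcnh2 (1.82 ± 0.35), Kcnk2 (1.52 ± 0.47), Kcnk3 (1.34 ± 0.24) and Kcna1 (1.32 ± 0.39) were higher too, and Kcnk1 was lower (-2.25 ± 0.29). Their adjusted p ran from 0.000658 (Kcnip1) to 0.0441 (Kcnk2). Smooth muscle markers averaged 12.83 to 13.15 in tsA58 tissue and 11.60 to 11.72 in C57BL/6J tissue, and 3 of 7 of them were called higher. One gene each of glia (of 3), macrophages (of 4), endothelium (of 4) and skeletal muscle (of 3) was called higher too, with a median log2 difference of 1.81 over the skeletal muscle genes and 0.96 over the smooth muscle genes; their part in these differences was not tested.

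Single arrays decided part of these tissue calls. Without C57BL/6J tissue replicate 1 the calls fell to 6 (Kcna1, Kcnh2, Kcnip2 and Kcnk2 were lost), and without replicate 2 also to 6 (Kcna1, Kcnip2, Kcnk2 and Kcnk3 were lost), the lone tissue array then being assumed to vary like the other groups. Without tsA58 tissue replicate 2 there were 15, 9 higher and 6 lower: Kcnk2 was lost, Kcna5 (1.53) joined the higher members, and Kcne2 (-1.65), Kcnj13 (-1.22), Kcnj15 (-2.34), Kcnk6 (-1.34) and Kcnn4 (-1.55) joined the lower ones. When the actin ratio entered the fit 6 were called, 5 higher and 1 lower, and Kcnk2 fell to 0.37. Over all genes 1657 were then higher and 404 lower, against 1270 and 426 without it. The members' calls thus fell while those of all genes rose. For the counts without an array, the share over all genes is not given. With hybridisation control centring, which moved the median of all genes by 2.13, 48 were higher and 0 lower. Of all 13285 genes tested, 12167 were then higher and 18 lower. The direction of a tissue difference therefore holds only relative to the bulk of transcripts.

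Whether the line-tissue difference itself differed between the strains was tested in the same model. It did for 10 of 53 tested members (18.9%, where 20.3% of all genes were called), 2 of them with a value above 0 and 8 below, beside 7.3% of all genes above and 13% below. The drop from tissue to line was larger in tsA58 for Kcnip1 (-2.66 ± 0.31, adjusted p = 0.000599), Kcnmb1 (-2.58 ± 0.36), Kcnip4 (-2.09 ± 0.32), Kcna1, Kcnk3, Kcnip2 and Kcnma1. Kcnh2 had the value furthest from 0 (-3.18 ± 0.47, adjusted p = 0.00174), with a rise in the C57BL/6J line only. For Kcnk1 (2.14 ± 0.39) and Kcnt2 (2.25 ± 0.49) the drop was larger in C57BL/6J. For Kcna1, Kcnip1, Kcnip2, Kcnip4, Kcnk1, Kcnk3 and Kcnmb1 the tissues were called different and the lines were not. For Kcnt2 the lines were called different and the tissues were not, for Kcnh2 both were, and for Kcnma1 neither was. With hybridisation control centring 3 were called, all below 0: Kcnh2 (-3.81), Kcnip1 (-3.30) and Kcnmb1 (-3.22). Over all genes 127 were then called above 0 and 450 below. The value of Kcnma1 (-1.12 ± 0.28) was opposed by another of its probe sets (2.25), turned to 0.69 when probe sets were averaged, and was not called without either C57BL/6J tissue array (-1.10 and -1.14) or without tsA58 tissue replicate 1 (-0.97). Kcna1 (-1.69 ± 0.52) and Kcnip2 (-1.22 ± 0.37) were lost when any 1 of 9 and of 8 arrays was left out, with values from -1.78 to -1.34 and from -1.36 to -1.07, including each C57BL/6J tissue array and tsA58 tissue replicates 1 and 3. Markers of several cell types were also called below 0: 4 of 7 smooth muscle, 3 of 4 macrophage, 2 of 3 glia, 3 of 8 neuron, 1 of 4 fibroblast, 1 of 4 endothelium, 1 of 3 mesothelium and 1 of 3 skeletal muscle genes, and their part was not tested.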

How the data were processed

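Gene expression was measured on 11 single-channel Affymetrix mouse genome arrays of 4 groups, from about 50 ng RNA after 2 rounds of amplification, per the labels' protocols. The deposited values are log2 intensities that the authors made with RMA (version not given in the sources used here), per the submitters' processing notes. RMA equalises the arrays' distributions, so levels are relative to the bulk of transcripts, and the small number of arrays limits the precision. Of 45101 probe sets, 34945 had 1 symbol in the platform annotation, and the probe set with the highest mean over all arrays stood for each of 18193 genes.

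The 13285 genes above the array median on at least 2 arrays were fitted in limma 3.58.1 (R 4.3.3) with 4 group means over all 11 arrays (lmFit and eBayes, 7 residual and 3.49 prior degrees of freedom). Adjusted p-values are Benjamini-Hochberg over these genes, and all p-values are 2-sided; errors of fold changes are standard errors. A call needed an adjusted p below 0.05 and a change of at least 2-fold. Summaries and figures used Python 3.11.15, numpy 2.4.6, pandas 2.3.3, scipy 1.17.1 and matplotlib 3.10.9. Tested on simulated data for the C57BL/6J line against its tissue (13285 genes, 200 changed), the fit called 13% of genes changed by 1 log2 unit and 77% of those changed by 2, with 5 false calls. In the real comparison 34.1% of genes were called, far more than were changed in the simulation. The adjusted p threshold depends on that share, so these rates do not carry over to the data.

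The text names all members called in any of 5 comparisons, giving every array for up to 6 per functional class with the largest changes, and a set of channels with roles in gut muscle, ICC or dividing cells; a few others that mark a range or a level rule were named after their values were seen. Members, partners and marker lists were chosen with earlier results of these data known. Replicate numbers were checked for pairing: over 15 same-numbered pairs, deviations from group means correlated at -0.156 to 0.25, and 1 pair exceeded 0.1, so the numbers were not taken to pair arrays. The alternatives were other scalings, filters, probe set rules and designs, and leaving out each array. Promoters came from RefSeq (GRCm38.p6).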

Additional observations from a re-analysis of the deposited data

Results flagged for a closer look

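The line-tissue difference itself differed between the strains, by the interaction term in limma, for 10 members, given as the tsA58 minus the C57BL/6J change in log2 units with its adjusted p. The values were -3.18 for Kcnh2 (adjusted p = 0.00174), -2.66 for Kcnip1 (adjusted p = 0.000599), -2.58 for Kcnmb1 (adjusted p = 0.00125), -2.09 for Kcnip4 (adjusted p = 0.00192), -1.69 for Kcna1 (adjusted p = 0.0416), -1.66 for Kcnk3 (adjusted p = 0.00538), -1.22 for Kcnip2 (adjusted p = 0.0355), -1.12 for Kcnma1 (adjusted p = 0.0189), 2.14 for Kcnk1 (adjusted p = 0.00463) and 2.25 for Kcnt2 (adjusted p = 0.00931). This is 18.9% of the tested members, where 20.3% of all genes tested were called.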

How the results depend on the processing

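Of 75 called values of single members, 32 kept their call in all of 20 settings in which they were tested, 70 kept their direction and 5 turned in some setting. Centring on hybridisation controls gave 13 calls for the C57BL/6J line against tissue, 15 for the tsA58 line against tissue, 19 between the lines, 48 between the tissues and 3 for the difference of differences. Under it the median of all genes moved by 1.23, 0.60, 1.49, 2.13 and -0.64, and these values turned: Kcnk3 (0.15), Kcnmb2 (0.07), Kcnmb4 (0.18) and Kcnq1 (0.45) in the C57BL/6J line, Kcnh2 between the lines (0.13) and Kcnn4 between the tissues (0.91). Quantile normalization moved the median of all genes by -0.12 between the tissues. Averaging probe sets turned the Kcnma1 difference of differences to 0.69, and leaving out tsA58 tissue replicate 2 turned Kcnj16 in the tsA58 line to 0.00273 (the range over single left-out arrays was -1.80 to 0.00273). Without a fold threshold 9 members were called between the lines, and 6 were called between the tissues when the actin 3′ to 5′ ratio entered the fit. With that ratio 1657 of all genes were called higher and 404 lower between the tissues. Leaving out 1 array at a time gave 6 to 15 calls between the tissues, and for the other counts stayed within 1.5 times, while 19 of the 75 single calls were lost without some array. Leaving out a C57BL/6J tissue array leaves 1, assumed to vary like the other groups. With a replicate block the counts were 23, 26, 5, 8 and 8 in the order above, and the blocked values were within 1.5 times the unblocked counts. Apart from the hybridisation controls, where a general shift of the array signal enters by construction, the cause of these changes was not tested. With 2 or 3 arrays a group, members that changed by less than about 2 log2 units could be missed, and those near the array median have no reliable fold. Some smaller changes were called, down to -1.05 for Kcnmb4 in the C57BL/6J line, and how many were missed was not measured.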
